A study of Homo sapiens with 6 samples.

Results

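The genes of the unfolded protein response were examined in open chromatin of human beta-like cells. The group holds 40 genes listed by their known role, among 19663 protein-coding genes, and the rule for it uses no measured value. A promoter region of a gene was an open region that came within 2 kb, in either direction, of the start of any of its protein-coding transcripts. A distal region was any other open region whose middle lay nearest to one of its start sites, within 100 kb. By these rules the 40 genes held 57 promoter regions and 114 distal regions of 108542 open regions in all.

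The data were ATAC-seq, in which the Tn5 transposase cuts and tags accessible DNA, from EndoC-βH3 cells. EndoC-βH3 is a human pancreatic beta cell line that carries an immortalizing transgene and a tamoxifen-inducible CreER recombinase. The senescent group of 3 libraries had received 4-hydroxytamoxifen for 3 weeks, and the non-senescent group of 3 libraries was the control, all labelled wild type and each made from 100000 cells. Every library came from this single line, and whether the replicates were separate cultures is not stated. The deposited table holds no value of a single library. Its mean signal is the authors' average over all 6 libraries of reads under a region, divided by size factors, so it carries no replicate error, and the depth of a single library cannot be read from it. The 2 groups are therefore not compared here, no test was run, and every value below describes both groups together. In such bulk libraries, fewer cells with an open region and less opening in each cell cannot be told apart.

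The unfolded protein response is the set of pathways by which a cell meets an excess of unfolded protein in the endoplasmic reticulum (ER). The membrane sensors IRE1, PERK and ATF6 signal to transcription factors, chiefly XBP1, ATF4 and the cleaved form of ATF6, which raise the transcription of chaperones, oxidases, and degradation and translocation components. Pancreatic beta cells fold large amounts of proinsulin in the ER and are known to depend on this response. Cleaved ATF6 and XBP1 act through the ER stress response element (ERSE) and related elements, and ATF4 acts with C/EBP partners through the C/EBP-ATF response element (CARE).

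The label of the cells was checked on marker genes. All 8 beta cell markers had a promoter region, with a median of 1466 normalised reads per kb. They ran from SLC30A8 with 541 reads per kb to PDX1, a beta cell transcription factor, with 2057. Of the 8, 7 lay above the median of all genes per kb, but only 5 by signal. No promoter region was found for PRSS1 of acinar cells, CFTR of duct cells, PDGFRB of mesenchyme, CDH5 of endothelium, or PTPRC and CD3E of immune cells. Some markers of other cell types did have an open promoter, such as LEPR with 1896 reads per kb and CPA1 with 1298. The median was 337 reads per kb over the 4 alpha cell markers, 548 over the 3 delta cell markers, 118 over the 3 of 4 acinar markers with a promoter region, and 443 over the 2 of 3 duct markers. It was 95.8 over 2 of 3 mesenchyme markers and 122 over 2 of 3 endothelium markers, and the 1 immune marker with a promoter region, CD68, had 921 reads per kb. The part of these markers in the results was not tested.

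The sequences of the promoters that the results turn on are given first. An ERSE match was taken as CCAAT, 9 free bases and CCACG, and an ERSE-II match as ATTGG, 1 free base and CCACG. A match to the unfolded protein response element (UPRE) was TGACGTGG, and a CARE match was TGATG, 1 free base and AA, all sought on both strands with no mismatch. The promoter of HSPA5, which encodes the major ER chaperone BiP, and that of HYOU1, the GRP170 chaperone and exchange factor of BiP, are shown over a longer stretch, since they hold the ERSE nearest to the start site among the chaperones and the only UPRE. They are RefSeq sequences in the direction of the gene, begin 250 bases before the start site and stop short of transcribed bases. Capitals mark the matches, read here on the strand of the gene, so that an inverted ERSE-II appears as CGTGG, 1 free base and CCAAT. In HYOU1 the ERSE-II match farther from the start site overlaps the UPRE match.
HSPA5 GRCh38.p14 chr9:125241383-125241593, minus strand: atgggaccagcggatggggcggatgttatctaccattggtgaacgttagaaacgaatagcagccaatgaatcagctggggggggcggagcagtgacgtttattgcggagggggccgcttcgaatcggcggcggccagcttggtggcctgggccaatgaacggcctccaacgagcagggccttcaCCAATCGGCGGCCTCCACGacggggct
HYOU1 GRCh38.p14 chr11:119057228-119057455, minus strand: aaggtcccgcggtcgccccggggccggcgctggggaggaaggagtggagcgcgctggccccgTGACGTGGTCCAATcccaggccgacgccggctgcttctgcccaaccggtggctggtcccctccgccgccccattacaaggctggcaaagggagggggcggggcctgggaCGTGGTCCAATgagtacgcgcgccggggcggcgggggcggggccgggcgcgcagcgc

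The other members with an ERSE are shown next, because the share of members with this element differed most from that of other genes. Both the genes and this element were chosen for their known part in the response, so the difference is not independent evidence. XBP1 is the transcription factor spliced by IRE1, and HSP90B1 is the ER paralogue of the cytosolic chaperone HSP90. CALR and CANX are the lectin chaperones calreticulin and calnexin, and CRELD2 is a secreted ER stress protein. PDIA6 is a protein disulfide isomerase, ERO1B is the ER oxidase that is abundant in beta cells, and SYVN1 is the ubiquitin ligase HRD1. Capitals mark the ERSE in either orientation.
XBP1 hg38 chr22:28800598-28800626, minus strand: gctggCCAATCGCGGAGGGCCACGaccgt
CRELD2 hg38 chr22:49918542-49918584, plus strand: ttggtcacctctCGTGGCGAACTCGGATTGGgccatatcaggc
PDIA6 hg38 chr2:10812841-10812883, minus strand: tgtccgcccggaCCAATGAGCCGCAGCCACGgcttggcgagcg
HSP90B1 hg38 chr12:103930316-103930344, plus strand: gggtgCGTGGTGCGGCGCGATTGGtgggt
HSP90B1 hg38 chr12:103930211-103930239, plus strand: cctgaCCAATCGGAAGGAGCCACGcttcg
CANX hg38 chr5:179698773-179698801, plus strand: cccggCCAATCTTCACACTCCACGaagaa
CALR hg38 chr19:12938372-12938414, plus strand: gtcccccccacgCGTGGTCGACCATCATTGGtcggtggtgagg
ERO1B hg38 chr1:236282171-236282213, minus strand: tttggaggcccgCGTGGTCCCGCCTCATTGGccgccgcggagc
SYVN1 hg38 chr11:65135047-65135089, minus strand: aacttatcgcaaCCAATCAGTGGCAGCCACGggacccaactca

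The ERSE-II matches of HERPUD1, an ER membrane protein of the degradation complex, and of SDF2L1, a partner of ER chaperones, are shown for comparison with HYOU1, with capitals on the match.
HERPUD1 hg38 chr16:56932013-56932047, plus strand: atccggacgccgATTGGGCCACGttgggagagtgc
SDF2L1 hg38 chr22:21642102-21642136, plus strand: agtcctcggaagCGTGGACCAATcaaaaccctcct

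The CARE matches that lay before the main start site within the strongest promoter region are shown, because CARE is the element through which ATF4 acts. ASNS is asparagine synthetase, CHAC1 degrades glutathione, DDIT3 encodes the transcription factor CHOP, and PPP1R15B is the constitutive subunit that guides the phosphatase of eIF2alpha. Capitals mark the CARE in either orientation.
ASNS hg38 chr7:97872458-97872487, minus strand: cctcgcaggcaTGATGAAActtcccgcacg
HERPUD1 hg38 chr16:56931954-56931985, plus strand: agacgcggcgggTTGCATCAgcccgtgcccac
CHAC1 hg38 chr15:40953251-40953280, plus strand: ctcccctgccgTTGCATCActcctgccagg
PPP1R15B hg38 chr1:204412025-204412056, minus strand: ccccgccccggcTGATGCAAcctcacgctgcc
DDIT3 hg38 chr12:57520801-57520832, minus strand: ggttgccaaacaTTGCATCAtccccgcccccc

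All 40 members had a promoter region, against 15453 of 19623 other protein-coding genes (78.7%). Their promoters were among the more open ones. The median signal of the strongest promoter region was 1743 normalised reads for the members and 839 for the other genes. Per kb of region, the median was 1451 reads for the members and 683 for the other genes. The quartiles of the members, 979 and 1933 reads per kb, lay above the corresponding quartiles of the other genes, 358 and 1117. Among all genes with a promoter region, the median member stood at percentile 84.0 by signal and 85.7 by signal per kb. The median width was 1248 bp for members and 1156 bp for other genes.

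**Figure D1:**
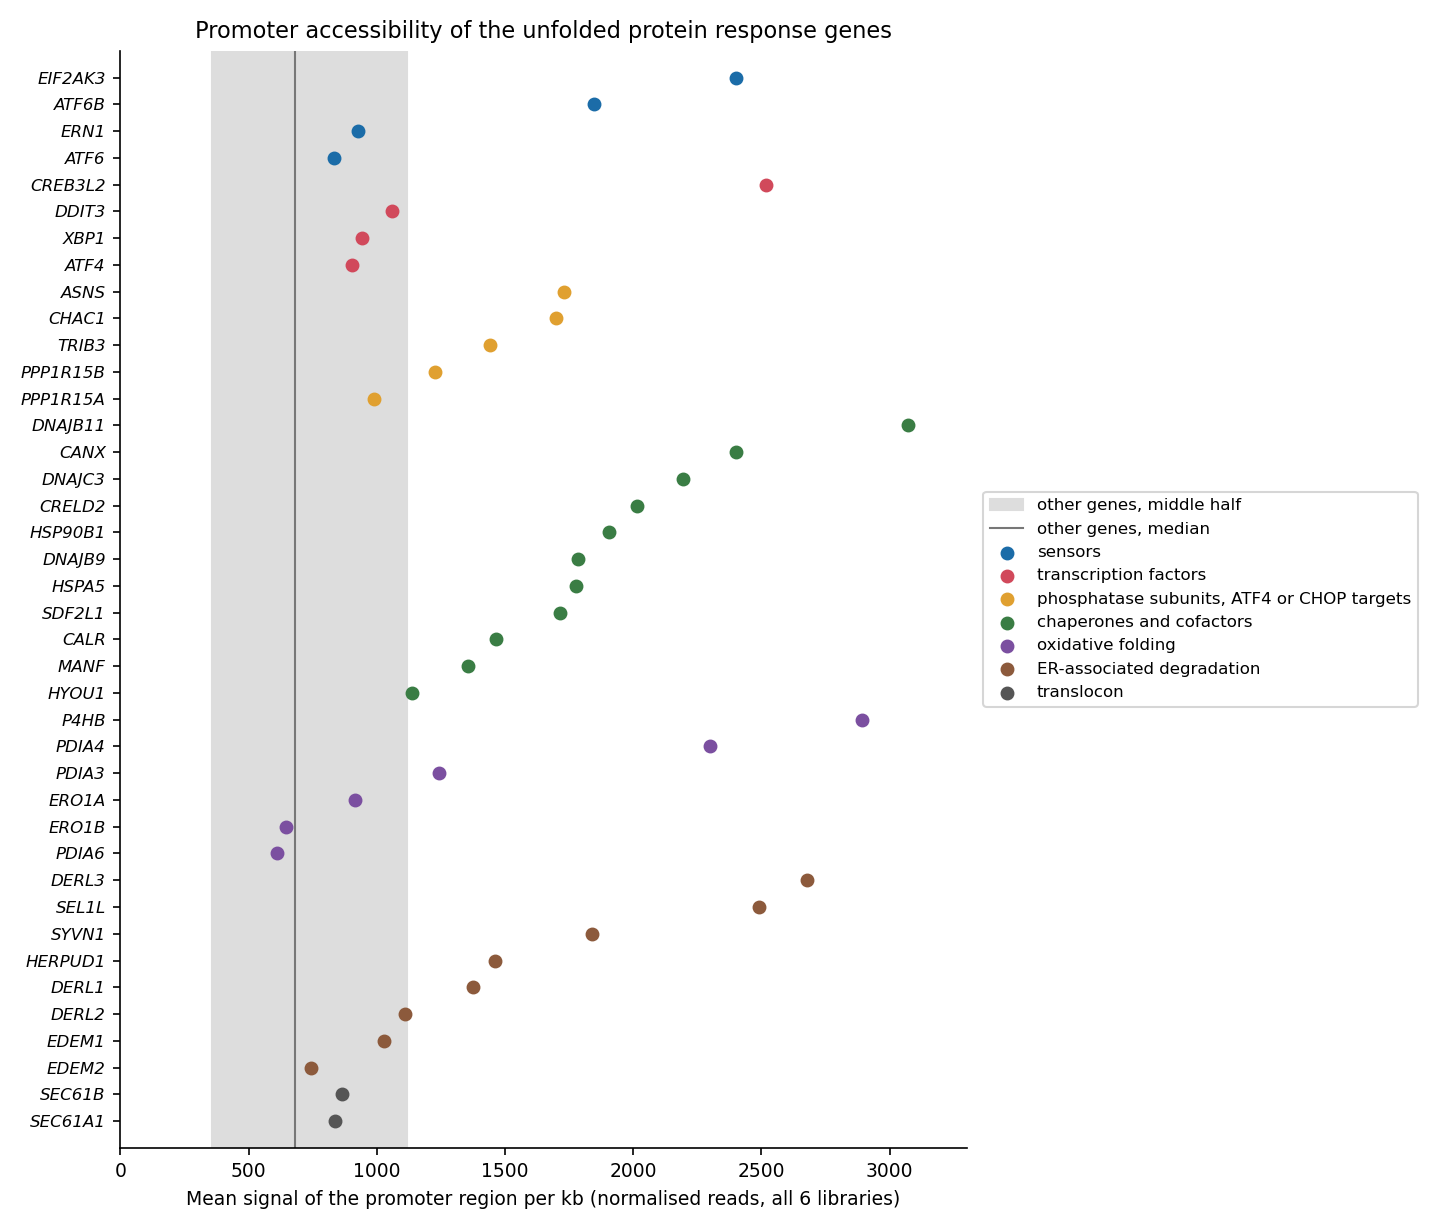
Mean signal per kb of the strongest promoter region (x axis, normalised reads averaged over all 6 libraries) of each of the 40 genes (y axis), coloured by role; the grey band spans the quartiles of the other protein-coding genes, 358 to 1117 reads per kb, and the line their median of 683. 38 genes lie above the median of all genes, and PDIA6 and ERO1B lie below it.

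By signal, 38 of 40 members lay above the median of all genes, as did 38 by signal per kb. By signal, PPP1R15A was among them only through a region after its start site. Its region at the start site had 679 reads, below the median of 840. Of the members, 24 (60.0%) fell in the highest of 5 equal classes of promoter signal, 12 in the next class, 3 in the middle one, 1 in the class below that and none in the lowest. The exceptions by signal were PDIA6, with 586 reads, and ATF6, with 779. Per kb the exceptions were PDIA6 with 611 reads and ERO1B with 646, percentiles 44.7 and 47.2. Both act in oxidative folding. The highest values per kb belonged to DNAJB11, the ERdj3 cofactor of BiP, with 3071 reads (percentile 98.9), and to P4HB, the founding protein disulfide isomerase, with 2892 reads (percentile 98.6). The level of opening thus spanned 611 to 3071 reads per kb within the group, and no member lay in the lowest class by signal.

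The chaperones and cofactors were the most open of the roles. Their 11 promoter regions had a median of 1786 reads per kb, at percentile 91.9, and 10 of 11 were in the highest of 5 equal classes of genes by signal. After DNAJB11 came CANX with 2401 reads per kb, then DNAJC3, an inhibitor of PERK and cofactor of BiP, with 2194, and CRELD2 with 2014. HSP90B1 had 1906 reads per kb, DNAJB9, the ERdj4 cofactor, 1786, HSPA5 1776 and SDF2L1 1713. CALR had 1467 reads per kb and MANF, a secreted factor that is kept in the ER by BiP, 1357. HYOU1, with 1138 reads per kb at percentile 75.7, was the lowest of these genes. The HSPA5 promoter region, at chr9:125240723-125242118, was 1396 bp wide with 2479 reads, which placed it at percentile 94.0 by signal.

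The sensors were less alike. EIF2AK3, the PERK kinase that phosphorylates eIF2alpha, had the highest promoter signal of all members, 3486 reads over 1452 bp at chr2:88626847-88628298, or 2401 reads per kb. ATF6B, a paralogue of ATF6, had 1847 reads per kb in a region of only 652 bp at chr6:32127860-32128511, the narrowest of the members. ERN1, which encodes the IRE1 kinase and endoribonuclease, had 927 reads per kb, and ATF6 had 832. A second promoter region assigned to EIF2AK3 lay at a start site far before the main one, at chr2:88691071-88692231 with 2253 reads. Whether another gene shares this second region was not examined, so its signal may not belong to EIF2AK3.

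The transcription factors had a median of 1001 reads per kb. CREB3L2, a membrane-bound factor of the secretory pathway, had 2518 reads per kb, percentile 97.4. DDIT3 had 1060 reads per kb, XBP1 942 and ATF4 902, which are percentiles 72.4, 66.7 and 64.6. The 3 factors that the sensors lead to were therefore close to each other, and CREB3L2 stood above them.

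Among the phosphatase subunits and the targets of ATF4 or CHOP, the median was 1440 reads per kb. ASNS had 1728 reads per kb, CHAC1 1700, TRIB3, a pseudokinase that binds AKT and ATF4, 1440, and PPP1R15B 1226. PPP1R15A, the stress-induced phosphatase subunit GADD34, had 991 in its strongest region. That region lay 2599 to 3648 bases after the main start site, with its middle in a 3′ UTR exon, whereas the region at the start site itself was 884 bp wide with 679 reads, or 768 per kb. PPP1R15A was the only member whose strongest promoter region did not hold the main start site.

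The oxidative folding genes covered nearly the whole range of the group. Besides P4HB, PDIA6 and ERO1B, the disulfide isomerase PDIA4 had 2298 reads per kb and PDIA3, which works with the lectin chaperones, 1244. The oxidase ERO1A had 917. The 2 ER oxidases were thus lower than 3 of the 4 isomerases, and PDIA6 was the lowest of the 6.

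The degradation genes had a median of 1419 reads per kb. DERL3 had 2678 reads per kb, SEL1L, the adaptor of the HRD1 ligase, 2490, and SYVN1 1839, while HERPUD1 had 1462. DERL1 had 1377 reads per kb and DERL2, a further derlin of the retrotranslocation channel, 1110. EDEM1 and EDEM2, which trim mannose from misfolded glycoproteins, had 1028 and 744 reads per kb. EDEM1 had the widest promoter region of all members, 2189 bp at chr3:5186995-5189183, with 2250 reads. The translocon genes SEC61B and SEC61A1, subunits of the channel through which new chains enter the ER, had 864 and 837 reads per kb, percentiles 62.0 and 60.3, the lowest median of the 7 roles.

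The strongest promoter region held the main start site in 39 of 40 members (97.5%) and in 12034 of 15448 other genes (77.9%). Within the highest class of signal the shares were 24 of 24 members and 86.4% of 3075 other genes. Regions that held the start site reached a median of 622 bases before and 590 bases after it in members, and 555 and 609 bases in other genes. The GC content was 63.8% in members and 62.9% in other genes, and the observed to expected CpG ratio was 0.797 and 0.748, as medians. Within the highest class of signal, the GC content was 63.9% against 63.1% and the CpG ratio 0.789 against 0.770. Per kb the members in this class had a median of 1813 reads and the other genes 1573, in regions of 1228 and 1376 bp. In the class just below, with 12 members, both orders were reversed. There the medians were 967 and 986 reads per kb, in regions of 1377 and 1287 bp.

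The strongest promoter region was shared with a start-site window of another protein-coding gene in 8 of 40 members and in 22.9% of other genes. Sharing of weaker promoter regions was not examined. DNAJB9 shared it with THAP5, DNAJB11 with TBCCD1, CRELD2 with ALG12, DERL1 with TBC1D31, DERL2 with MIS12, and SEC61B with ALG2, all on the opposite strand. DDIT3 shared it with MBD6 on the opposite strand and with ENSG00000285133, and ATF6B with FKBPL on the same strand. For these members, the signal cannot be assigned to 1 gene. By chromosome, 5 members lay on chromosome 22 and 4 each on chromosomes 3 and 7, out of 434, 1063 and 918 protein-coding genes there.

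**Figure D2:**
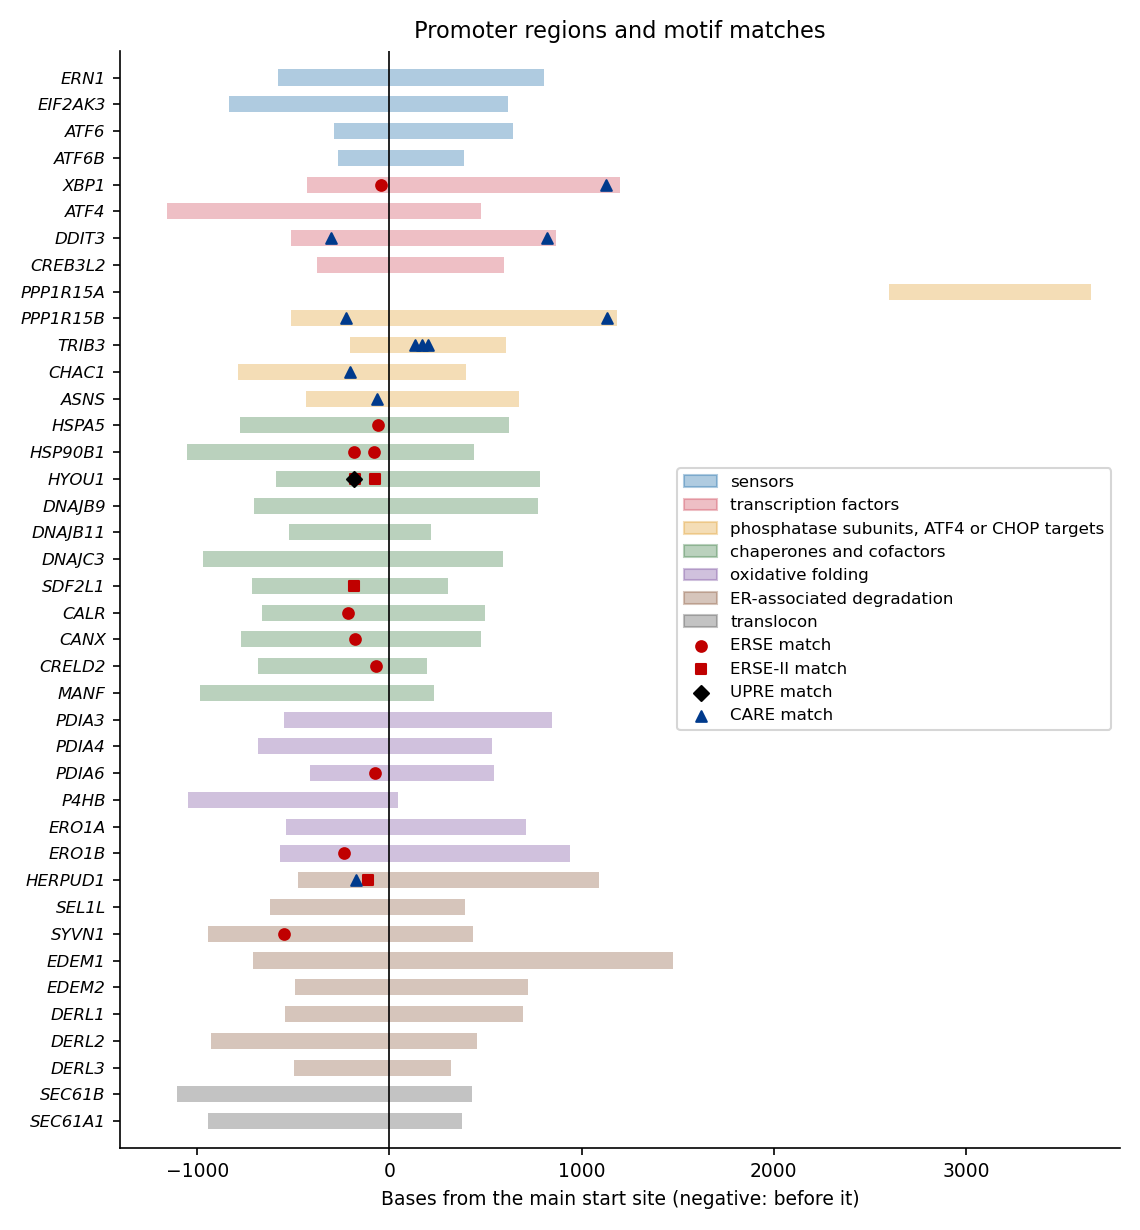
Span of the strongest promoter region of each member (bars, coloured by role) around its main start site (vertical line at 0, x axis in bases, negative before the start), with the middle of each motif match in that region as a symbol. The ERSE and ERSE-II matches all lie before the start site, 9 of 10 and 4 of 4 within 250 bases of it, and the region of PPP1R15A lies apart from its start site.

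An ERSE match stood in a promoter region of 9 members (22.5%) and of 18 other genes (0.116%). Over all 15493 genes with a promoter region the share was 0.174%, and over all 20094 promoter regions it was 0.124%, or 25 regions, 9 of which belonged to members. The 9 members were HSPA5, HSP90B1, CALR, CANX, CRELD2, PDIA6, ERO1B, SYVN1 and XBP1. HSP90B1 held 2 matches, so there were 10 in all, of which 6 were read on the strand of the gene and 4 on the other strand. The matches ended 34 bases before the main start site in XBP1, 48 in HSPA5, 62 in CRELD2, 68 in PDIA6, 71 and 176 in HSP90B1, 171 in CANX, 207 in CALR, 225 in ERO1B and 540 in SYVN1. All but that of SYVN1 lay within 250 bases before the start site. Of the 16 regions with an ERSE that belonged to no member, 5 had it within 250 bases before a main start site.

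An ERSE-II match stood in 3 of 40 members, HERPUD1, HYOU1 and SDF2L1, against 0.129% of other genes and 0.148% of all genes. It ended 107 bases before the start site in HERPUD1, 178 in SDF2L1, and 69 and 175 in HYOU1. No member held both an ERSE and an ERSE-II, so 12 of 40 members held at least 1 of these elements, against 38 other genes (0.246%). They included 7 of the 11 chaperones and cofactors, 2 of the 6 oxidative folding genes, 2 of the 8 degradation genes and 1 of the 4 transcription factors. None was found in the sensors, the ATF4 and CHOP branch or the translocon genes. Genes of like signal gave a similar contrast, which also rests on genes and elements chosen for their known part in this response. In the highest class of promoter signal an ERSE or ERSE-II was found in 8 of 24 members and in 15 of 3075 other genes (0.488%). In the class of signal just below, it was found in 2 of 12 members and in 7 of 3087 other genes (0.227%).

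Openness varied widely among members with these elements. Per kb, the members with an ERSE ran from PDIA6 with 611 reads and ERO1B with 646, the lowest of the group, to CANX with 2401. DNAJB11 and P4HB, the most open members, had no exact match to either element. No match says only that these letters are not in the region, and a match is not a bound site.

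The share with a UPRE was close to that of other genes. HYOU1 was the only member with a UPRE match (2.50%), against 3.10% of other genes. A CARE match was found in 8 of 40 members and in 8.91% of other genes, or 8.94% of all genes with a promoter region. The 8 were ASNS, CHAC1, TRIB3 and PPP1R15B of the ATF4 and phosphatase branch, the transcription factors DDIT3 and XBP1, HERPUD1 and DNAJB11. They held 15 matches, of which 11 were in the strongest promoter region. TRIB3 had 3 matches in that region, at 132, 165 and 198 bases after the start site, and DDIT3 and PPP1R15B had 2 each. ASNS had its match 61 bases before the start site, HERPUD1 169, CHAC1 202, PPP1R15B 220 and DDIT3 299. HERPUD1 was the only member with an ERSE-II and a CARE in the same region, and XBP1 the only one with an ERSE and a CARE. In XBP1 the CARE lay 1126 bases after the start site. In DNAJB11 it lay 3101 bases before the start site, in a weaker region with its middle in a 5′ UTR exon of TBCCD1.

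Over the RefSeq promoters, which run from 250 bases before to 50 bases after each start site, the shares over all entries were lower, with shorter windows and a different set of genes. Of 35116 RefSeq promoters of 300 bases, 0.0769% held an ERSE, 0.0541% an ERSE-II, 0.729% a UPRE and 3.62% a CARE. Members are counted by gene and not by entry. By gene symbol, 0.161% of 27305 symbols held an ERSE or ERSE-II, 0.927% a UPRE and 4.46% a CARE. Of the 37 members in that table, 11 held an ERSE or ERSE-II, 1 a UPRE and 5 a CARE. PDIA3, DERL1 and DERL3 were not in it.

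**Figure D3:**
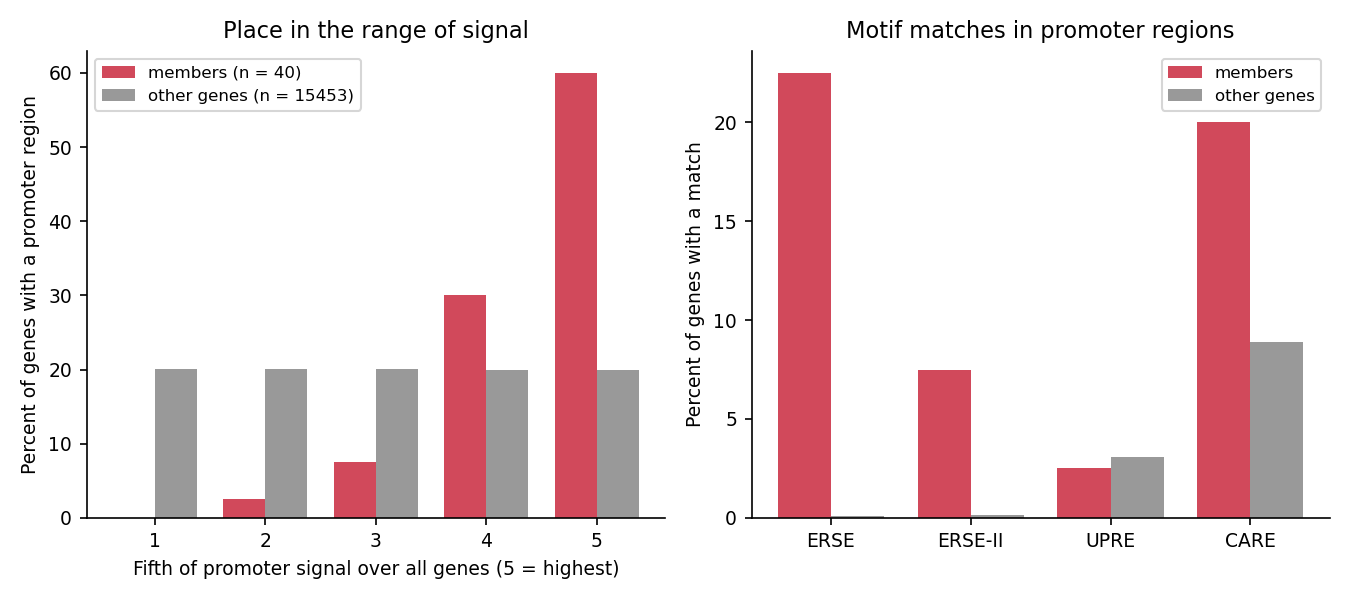
Left, percent of genes with a promoter region (y axis) that fall in each of 5 equal classes of promoter signal (x axis, 5 is the highest) for the 40 members and 15453 other genes; right, percent of each with a match to each of the 4 motifs in a promoter region. 60.0% of members are in the highest class, and ERSE matches stand in 22.5% of members and 0.116% of other genes.

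Other genes of the same response gave lower values. The list held 28 further genes, of which 26 had a promoter region. Their median was 817 reads per kb at percentile 58.9, and per kb 15 of the 26 lay above the median of all genes. By signal their median was 1261 reads at percentile 69.7, and 18 of the 26 lay above the median of all genes. EDEM3, a mannosidase-like degradation protein, had 3641 reads per kb and HSPA13, a microsomal relative of HSP70, 2369. The lowest were CREB3L1, a membrane-bound transcription factor, with 216 and MBTPS2, the protease that releases ATF6, with 265. NUPR1 and CREB3L3 had no promoter region. Of the 26 genes, 4 (15.4%) held a UPRE and 7 (26.9%) a CARE, against 3.10% and 8.91% of other protein-coding genes. None held an ERSE or ERSE-II, which at a share of 0.246% among other genes does not set this list apart.

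Chaperones of the cytosol and mitochondria, which answer to other stress pathways, were about as open as the members. All 20 had a promoter region, with a median of 1284 reads per kb at percentile 81.0, below the members. By signal their median was 1864 reads at percentile 86.0, above the members, and 13 of 20 were in the highest class. HSPD1 and HSPE1, the mitochondrial chaperonin and its cofactor, had the same promoter region, so the 20 genes stood for 19 regions. STIP1, the HSP70 and HSP90 organizing protein, had 3736 reads per kb and CCT3, a subunit of the cytosolic chaperonin, 3626. BAG3, an HSP70 cochaperone, had 286 and HSF1, the master factor of the heat shock response, 479. No ERSE or ERSE-II was found in their promoter regions, 1 gene (5%) held a UPRE and 3 (15%) held a CARE, in 2 regions. High openness was thus shared with these chaperones. At a share of 0.246% among other genes, the lack of an ERSE or ERSE-II in 20 genes does not set them apart. These lists were described by counts alone, and their differences were not tested.

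Of the 40 members, 31 (77.5%) had at least 1 distal region, against 67.2% of other genes, with a median of 2 regions against 1 and a mean of 2.85 against 2.81. In the highest class of promoter signal, 20 of 24 members (83.3%) and 68.5% of other genes had one. The order was reversed in the class just below, with 7 of 12 members (58.3%) and 70.3% of other genes. The 3 members of the middle class and the 1 member of the class below that all had one. The counts were uneven. CREB3L2 and EDEM1 had 11 distal regions each, ERO1B 10 and CHAC1 8, while ERN1, PDIA4 and SEC61A1 had 6 each. ATF6B, DDIT3, PPP1R15A, HSP90B1, HYOU1, DNAJB11, CALR, SYVN1 and DERL2 had none. The oxidative folding genes all had one, and 7 of 11 chaperones did.

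The distal regions were weaker than the promoters. Their median was 104 reads, or 218 per kb, with a range of 12.9 to 1413, and for the 55088 pairs of a distal region and another gene it was 88.4 reads, or 187 per kb. The median distance from the middle of the region to the start site was 22676 bases for members and 24004 for other genes, and 21.9% and 23.7% lay within 10 kb. Of the members' distal regions, 53 had their middle in an intron, 42 of them in the member itself, and 5 each in coding and 3′ UTR exons. The other 51 lay outside protein-coding transcripts, the only ones considered here. The GC content was 46.8%, against 63.8% in the members' promoter regions.

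**Figure D4:**
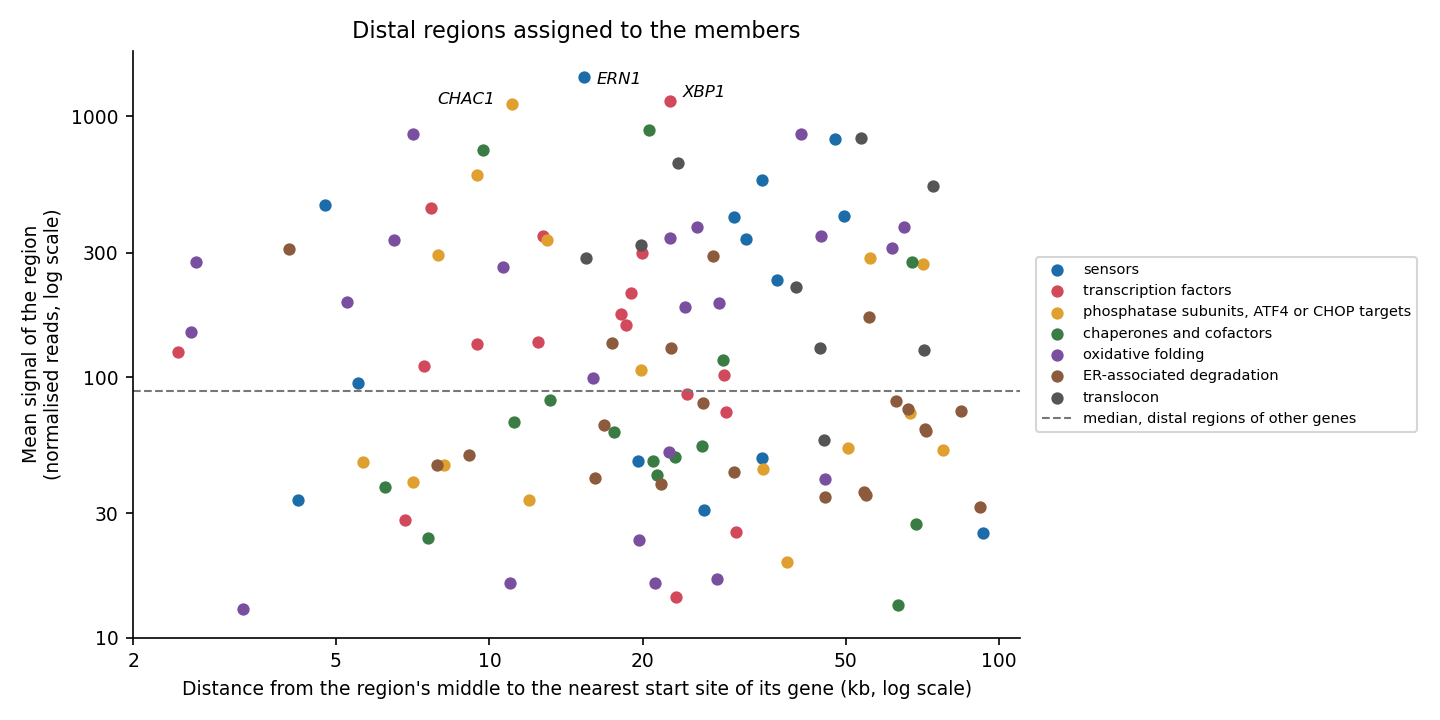
Mean signal (y axis, normalised reads averaged over all 6 libraries, log scale) of the 114 distal regions of the members against the distance from the middle of the region to the nearest start site of the gene (x axis, kb, log scale), coloured by role; the dashed line is the median of distal regions of other genes, 88.4 reads. The strongest regions belong to ERN1, XBP1 and CHAC1.

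The strongest distal region of the members lay 15361 bases from the start site of ERN1, outside protein-coding transcripts, at chr17:64145538-64146822. Noncoding genes were not considered in this placing. The GC content of the region was 57.4%, against medians of 46.8% in the members' distal regions and 63.8% in their promoter regions. Its CpG ratio was 0.851, against a median of 0.797 in the members' promoter regions. It had 1413 reads over 1285 bp, more than the 1287 reads of the ERN1 promoter region at chr17:64129339-64130726. By reads, ERN1 was the only member with a distal region above its own promoter, 1 of 31 members with both (3.23%), against 28.1% of 10982 other genes. Per kb there were 4 such members (12.9%), against 38.8% of other genes. No member lay in the lowest class of promoter signal, where the share of other genes was 70.9% by reads and 79.9% per kb. In the highest class it was 0 of 20 members on both scales, against 79 of 2106 other genes by reads and 232 per kb. In the class just below, the order was reversed, with 1 of 7 members and 9.03% of other genes by reads. Per kb it was 3 of 7 members and 18.6% there. The contrast over all genes thus did not hold in both classes. In ERN1 the distal region had 1100 reads per kb and the promoter 927, in XBP1 1251 and 942, in SEC61A1 1259 and 837, and in ERO1B 710 and 646. By reads, the strongest distal region had a median of 15.0% of the promoter signal in members and 39.5% in other genes. The promoter is the divisor of this ratio, and among genes of the highest class of promoter signal the medians were closer, 11.8% in 20 members and 13.1% in 2106 other genes. In the class just below, it was 50.9% in 7 members and 19.4% in 2170 other genes. By this median ratio, the members within these classes were thus close to other genes or above them. ERN1 also had distal regions of 822 and 570 reads within its own body, and its 6 distal regions ranged from 49.1 to 1413 reads.

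XBP1 had the next strongest distal region, with 1144 reads at chr22:28822754-28823668, 22614 bases from its start site and before the gene. The promoter region of XBP1 had 1538 reads. CHAC1 had a region of 1116 reads at chr15:40941093-40942649, 11091 bases from its nearest start site. CANX had a single distal region of 885 reads, ERO1B one of 858 reads 7081 bases away, PDIA4 one of 855 reads and SEC61A1 one of 825 reads. SDF2L1 had a single distal region of 746 reads. By contrast, the distal regions of HSPA5 reached only 37.8 reads, those of DNAJC3 54.3 and those of SEL1L 62.0, although the promoters of these genes were in the highest class.

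No ERSE, ERSE-II or UPRE match was found in the members' distal regions. A CARE match was found in 14 of the 114 (12.3%), against 8.60% of the distal regions of other genes. They included the region of 822 reads in ERN1, a region of 661 reads assigned to SEC61A1 that lay in an intron of RUVBL1, and a region of 597 reads in TRIB3. Among distal regions of other genes, ERSE was found in 0.0218%, ERSE-II in 0.0236% and UPRE in 0.786%. At shares this low, the lack of a match in 114 regions does not set the members apart.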

How the data were processed

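ATAC-seq of 6 libraries of EndoC-βH3 cells was used, 3 non-senescent and 3 senescent, grouped by their labels. Per the study's methods and the submitters' processing notes, the authors trimmed reads with Trim Galore and cutadapt, aligned them to hg38 with Bowtie2 (Bowtie in the notes), removed mitochondrial reads and duplicates (SAMtools, Picard), shifted reads for the transposase with deepTools, found peaks with MACS2 and counted reads under the union of peaks. Versions are not given in the sources used here. The deposited mean signal is the authors' average over all libraries of counts divided by DESeq2 size factors. The remaining 5 columns hold the authors' own comparison (fold change, standard error, statistic, p-value, adjusted p-value) and were not used. There are no columns of single libraries, so the planned count test of senescent against non-senescent cells was not run, and neither depth nor replicate error is known. All values are descriptions.

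Region starts were taken as counted from 0, and 1 was added. Start sites came from GENCODE 44, the main one being the MANE or, failing that, the Ensembl canonical transcript. 0 regions passed a chromosome end. The strongest promoter region stood for a gene. Ranks and the 5 equal classes of promoter signal are over the 15493 genes with a promoter region. Signal per kb is signal divided by width. The values were computed with Python 3.11.15, pandas 2.3.3 and numpy 2.4.6, and the assignment and motif search were tested on simulated data. RefSeq promoters were of GRCh38.p14. Named are all members, extremes per kb and by width, number of distal regions, motif matches, genes sharing a promoter region, and the 2 highest and lowest genes of each other list. The members and lists were chosen with earlier results of these data known. Alternatives were promoter windows of 1 and 0.5 kb, the most upstream start site, a minimum signal of 50, summed promoter regions, a distal limit of 50 kb, the nearest start site of any gene, the middle 300 bases of a region and autosomes alone.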

Additional observations from a re-analysis of the deposited data

How the results depend on the processing

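Of 59 alternative values over 11 results, 53 stayed within 1.5 times the reported value, and all promoter results on signal, rank and width were among them. Some of the 53 could not move, so the count overstates stability. No member lies on chromosome X or Y, so autosomes alone had to leave the members' median signals unchanged. The weakest member by promoter signal had 586 reads, so a minimum of 50 could not change the members' promoter number, signal or width. A rank this high could not rise 1.5 times. The median promoter signal of members ran from 1705 to 1918 reads, its rank from percentile 83.2 to 85.7, and the number of members with a promoter region from 39 to 40. With a minimum mean signal of 50, which removes weak regions by construction, the median of the members' distal regions was 210 reads in place of 104. When the nearest start site of any gene, not only of protein-coding genes, decided the assignment, 57 in place of 114 distal regions were assigned to members. Within the middle 300 bases of each region, ERSE or ERSE-II was found in 5 members, CARE in 2 and UPRE in 0. Over all promoter regions the shares fell as well, for ERSE or ERSE-II from 0.224% to 0.0746%, for CARE from 6.39% to 1.82% and for UPRE from 2.08% to 0.642%. In the RefSeq promoters, an alternative chosen after seeing the data, CARE was found in 5 members. Leaving out the 8 members with a shared promoter region, also chosen after seeing the data, gave a median signal of 1832 reads. No paired analysis was possible because each value is a mean over all 6 libraries. For the same reason, leaving out a replicate and other normalisations were not run. The mean over both groups can hide a difference between them, and a sum of reads favours wide regions. The 5 classes rest on such sums, as do the levels of distal regions, while promoter levels of single genes are mostly given per kb.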

Other observations

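The 16 promoter regions with an ERSE that belonged to no member included several genes of the ER, named here after their values were seen. The region shared by EIF2A and SERP1, the latter an ER membrane protein that associates with the translocon, had 2374 reads, with the ERSE 59 bases before the start site of EIF2A. FICD, an ER enzyme that modifies BiP, had 1308 reads, with the ERSE 136 bases before its start site. SLC33A1, the acetyl-CoA transporter of the ER membrane, had 2466 reads, with the ERSE 243 bases before. SIL1, an exchange factor of BiP, had 802 reads, with the ERSE after its main start site. TMEM120A and ZNF17 were the other genes with the ERSE within 250 bases before a main start site, at 85 and 223 bases, with 1191 and 734 reads. The region shared by CRELD2 and ALG12, which encodes a mannosyltransferase of the ER, held a single ERSE.

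Among the 17 promoter regions with an ERSE-II that belonged to no member, 10 had it within 250 bases before a main start site. They included the region shared by NUCB1 and TULP2, with 686 reads. The strongest of the 17 were those of ZNF143 and PRMT1, with 3410 and 3272 reads. Their matches lay 101 and 491 bases before the start site, that of PRMT1 thus outside the 250 bases. The median signal was 735 reads over these 17 regions and 1750 over the 3 of members. For ERSE it was 1257 reads over the 16 regions of other genes and 1766 over the 9 of members. Per kb the medians were 737 and 1462 reads for ERSE-II, and 885 and 1776 for ERSE. None of these differences was tested.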
